A study of Mus musculus with 16 samples.

Results

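The response of male dorsal skin to repeated ultraviolet B (UVB) light was measured in 8 of the 16 mice of the series, chosen by their labels of sex and treatment. All 8 were wild-type C57Bl/6 males (C57Bl/6N in the text of the study) aged 8 weeks, and the labels give telogen (hair follicles at rest) for all. The 4 UVB males had been irradiated 3 times, and skin was collected on day 5, at 6 h from the last exposure. The 4 no-UVB males carried the same genotype and were not irradiated. The comparison asks which transcripts of male skin differ after UVB. Whole skin was used, with epidermis, dermis, hair follicles, fat and the muscle sheet beneath, and polyadenylated RNA was sequenced from each mouse. In such bulk samples a change in the number of cells of a type and a change in the RNA per cell cannot be told apart.

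UVB light damages DNA in the outer cells of the skin, and keratinocytes answer with p53 signalling, repair, release of cytokines and later with faster division and a thicker, more cornified epidermis. Keratinocytes move from the basal layer, marked by *Krt5* and *Krt14*, through the suprabasal layers, marked by *Krt1* and *Krt10*, to dead corneocytes. Those carry an envelope of involucrin, loricrin, small proline-rich and late cornified envelope proteins, joined by transglutaminases and embedded in lipid. Stressed or wounded epidermis also makes the keratins *Krt6a*, *Krt6b*, *Krt16* and *Krt17*.

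Reads on genes numbered 16495776 to 33404831 in the UVB males and 18397821 to 23370280 in the no-UVB males. Levels are given as CPM, the reads of a gene per 1000000 reads of its library after scaling between libraries, and they are not divided by gene length, so that they are compared between mice and not between genes. All 10 genes of a check list for skin were present, from keratins (*Krt5*, *Krt14*, *Krt1*, *Krt10*) through collagens to *Vim*, *Pecam1* and *Ptprc*, and the Y-linked gene *Ddx3y* averaged 80.6 CPM without UVB and 95.2 CPM with it. The first principal component of the 8 libraries held 71.7% of the variance and separated UVB from no-UVB mice. The second held 7.35% and separated no-UVB males 1 and 2 from no-UVB males 3 and 4, and the third held 5.90% with UVB male 2 at one end. Values without either pair of no-UVB males, or without UVB male 2, are given beside the results below that most depend on them.

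In all, 16535 genes had enough reads to be tested. A gene is said below to have risen or fallen when its Benjamini-Hochberg adjusted p was under 0.1 in edgeR's quasi-likelihood test, and to have been raised or lowered when its log2 fold change was past 1 as well. By the second rule 675 genes (4.08% of those tested) were raised and 547 (3.31%) were lowered. By the adjusted p alone 4802 (29.0%) rose and 5051 (30.5%) fell, with a median log2 fold change of -0.02 over all genes, so that a gene list is read below against these shares. Scaling by the upper quartile moved that median to -0.10 and the numbers to 579 raised and 705 lowered genes, which turned the share of raised genes among the calls from 55.2% to 45.1%. The raised side held the large changes. Of the raised genes 199 were past a log2 fold change of 2, 117 past 3 and 54 past 5, against 49, 6 and 0 of the lowered genes. Of the 54, 25 had no more than 3 reads in any no-UVB male, so that the fitted size depends on the prior count, and with such genes at their lower bounds 198, 114 and 36 raised genes were past these folds. Every UVB male lay above every no-UVB male for 639 of the 675 raised genes (24.2% of all genes tested showed this), and below for 478 of the 547 lowered genes (22.7%). The raised genes together took 2.37 ± 0.35% of the counts (SD, n = 4) without UVB and 7.95 ± 0.93% with it, while the lowered genes took 9.10 ± 0.67% and 3.30 ± 0.52%. Protein-coding genes made up 554 of the raised and 461 of the lowered genes, and long non-coding RNAs 69 and 61.

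**Figure D1:**
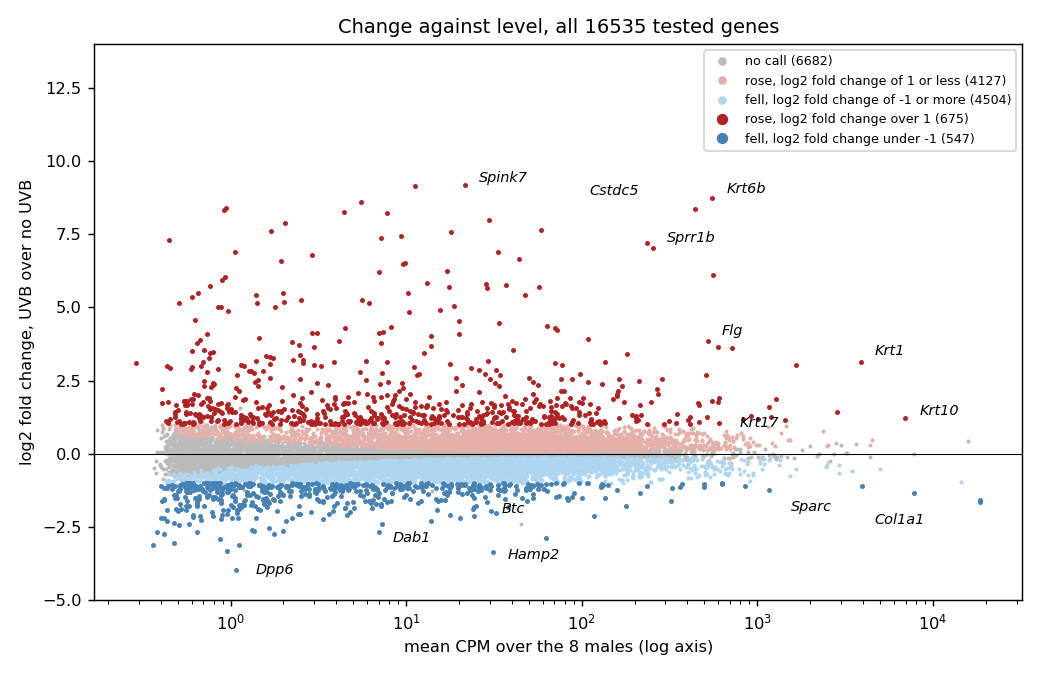
Log2 fold change (UVB over no-UVB males) of each of the 16535 tested genes against its mean level over the 8 males in CPM (log axis), with genes coloured by call. The 54 genes past a log2 fold change of 5 are all above the zero line, *Krt1* and *Krt10* lie at the right above it, and *Col1a1* and *Sparc* at the right below it.

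The 15 largest rises were mostly in keratin, stefin, late envelope, serpin, protease and protease inhibitor genes, with the others in *Akr1d1*, *Saa3* and *Olah*. *Krt6b* (ENSMUSG00000023041.8, chromosome 15, 101584458 to 101588722), which encodes a keratin of stressed epidermis, stood at 1044, 1667, 762 and 964 CPM in the 4 UVB males and at 3.78, 3.16, 1.91 and 1.52 CPM in the 4 no-UVB males. Its log2 fold change was 8.72 (SE 0.39, adjusted p = 1.6e-06). The groups were far apart, with UVB male 2 the highest of the 8 mice. *Krt6b* and *Krt6a* are close in sequence and only uniquely mapped reads were counted, so that reads shared by both are absent from both. *Krt16*, the partner of the Krt6 keratins, went from between 10.8 and 19.3 to between 783 and 1533 CPM, a log2 fold change of 6.11 (SE 0.28, adjusted p = 1.5e-06). *Krt6a* itself had 75.1 to 137 CPM without UVB and 932 to 1798 with it (3.63 (SE 0.27, adjusted p = 1.4e-05)). *Krt17* rose far less, with 640.2, 533, 614 and 522 CPM without UVB, 892, 976, 770.2 and 800.4 CPM with it and a log2 fold change of 0.57 (SE 0.10, adjusted p = 0.00056). All 4 stress keratins rose, with a median log2 fold change of 4.87.

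Among keratins of the ordinary epidermis the changes went from a rise in *Krt2* to a fall in *Krt15*. *Krt1*, the suprabasal keratin, stood at 7512, 8355, 7097 and 4983 CPM in the UVB males and at 623, 479, 1154 and 929.7 CPM in the no-UVB males. Its log2 fold change was 3.13 (SE 0.29, adjusted p = 3e-05), and its partner *Krt10* had 1.24 (SE 0.14, adjusted p = 3.9e-05). *Krt14* of the basal layer went from between 1057 and 2019.9 to between 3390.1 and 5515 CPM (1.43 (SE 0.23, adjusted p = 0.00065)), whereas *Krt5*, with which it pairs, did not pass the test (0.29 (SE 0.16, adjusted p = 0.15)). *Krt2*, a keratin of the uppermost living layers, rose from between 0.498 and 1.24 to between 9.54 and 21.7 CPM (4.34 (SE 0.39, adjusted p = 3e-05)). The keratin of the hair follicle bulge, *Krt15*, fell from between 1506 and 1982 to between 574 and 865 CPM (-1.25 (SE 0.13, adjusted p = 2.6e-05)). Of 10 basal and suprabasal keratins tested, 6 rose and 2 fell, with a median of 0.77.

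**Figure D2:**
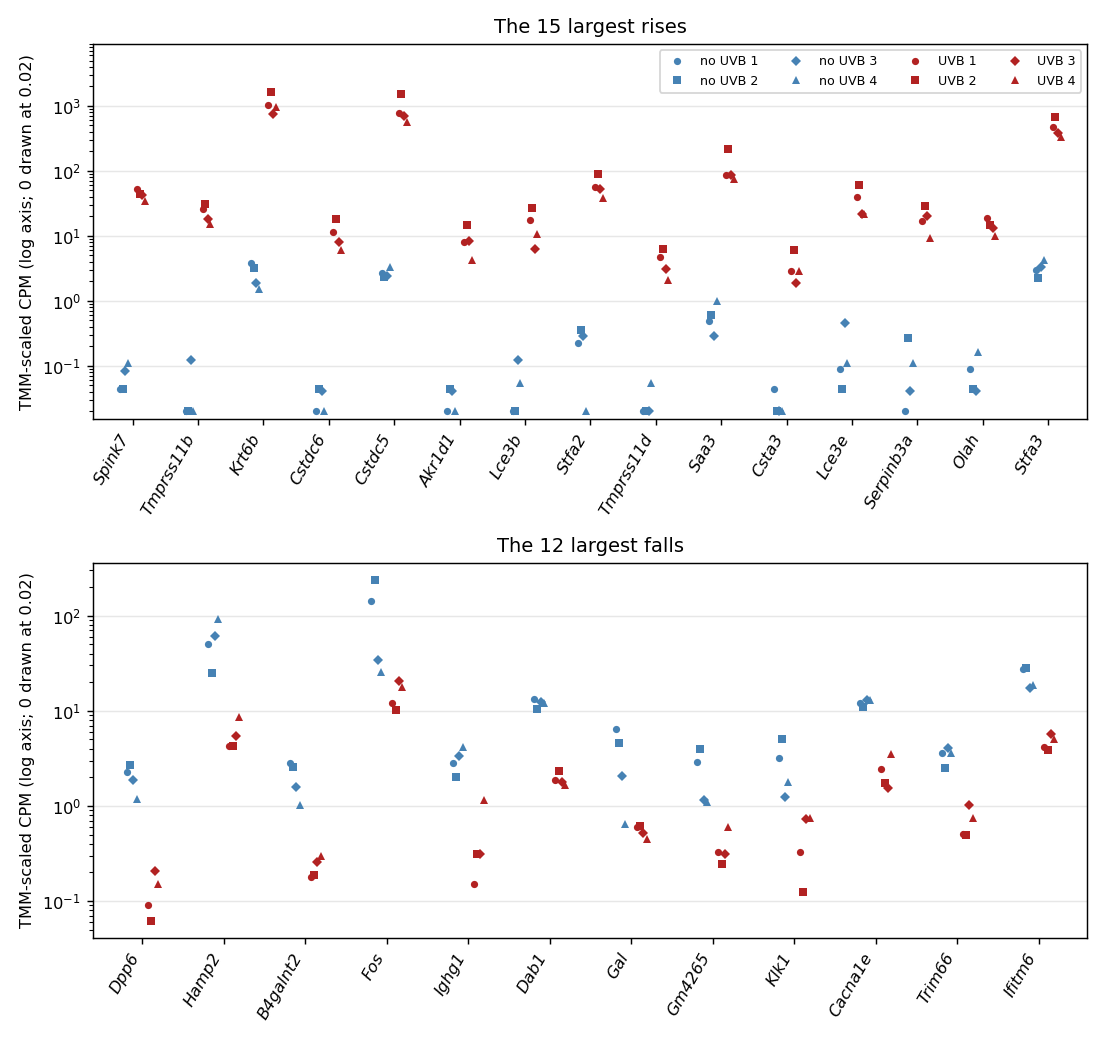
CPM (log axis, 0 drawn at 0.02) of each UVB male (red) and each no-UVB male (blue) for the 15 largest rises and the 12 largest falls among genes of at least 1 CPM whose groups did not overlap. *Krt6b* and *Cstdc5* are the rises with the highest UVB levels, and *Gal* and *Fos* are the falls with the widest spread among the no-UVB males on the log axis.

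Several of the largest rises were in genes close to silent without UVB. In 30 of the 675 raised genes no no-UVB male had more than 3 reads, so that the rise is given as a lower bound against a level of 3 reads per library (0.138 CPM). *Spink7* (ENSMUSG00000060201.6), a protease inhibitor of stratified epithelium, had 51.7, 43.7, 42.2 and 34.3 CPM in the UVB males and at most 2 reads in any no-UVB male, and was at least 311-fold higher after UVB. *Tmprss11b*, a membrane serine protease, reached 25.5, 30.4, 18.4 and 15.02 CPM and was at least 162-fold higher. The bounds of *Lce3b* and *Olah*, an acyl-chain thioesterase, were at least 112-fold and at least 103-fold. Those of *Akr1d1* and of the stefin gene *Cstdc6* were at least 64.1-fold and at least 79.8-fold. Floors and bounds cover counting error only.

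Several families of neighbouring genes were raised side by side. There were 8 runs of at least 4 neighbouring protein-coding genes that were all raised, and no such run of lowered genes. The longest, on chromosome 3 from 92192724 to 92528975, held 18 genes, among them the small proline-rich genes (Sprr), *Ivl* and Lce6a, with a median log2 fold change of 5.04. A second run on the same chromosome, from 92832594 to 92900733, held the 6 Lce3 genes with a median of 6.71, and the other run there, from 92614708 to 92686210, held the 5 genes *Lce1e* to *Lce1i* with a median of 2.44. On chromosome 16, from 35940316 to 36275884, all 8 tested genes of the stefin A cluster were raised, with a median of 7.42. A run of 6 Tmprss11 protease genes lay on chromosome 5 from 86450076 to 86893674 (median 3.12), and a run of 4 genes of IL36 signalling on chromosome 2 from 24043161 to 24173438 (median 3.70). Kallikrein proteases on chromosome 7 gave a run of 5 genes from 43441315 to 43500605 (median 2.55) and one of 4 from 43339842 to 43428690 (median 2.52). Chromosome 3 as a whole held 75 raised genes of 885 tested, or 8.47%.

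Promoters of the longest run are shown because its genes lie side by side and moved together, with 1 promoter of the Lce3 run beside them. The sequences are the 250 bases before the transcription start given by RefSeq, whose table was built on GRCm38.p6, placed on GRCm39 by exact match and written 5′ to 3′ on the strand of the gene. Capitals mark TGANTCA, the letters bound by AP-1 (*Fos* and *Jun* proteins), and TATAAA, the TATA box, each searched on both strands. *Sprr1b* (chr3:92346087-92346336, minus strand), *Sprr2e* (chr3:92259200-92259449, plus strand) and *Sprr2f* (chr3:92272244-92272493, plus strand) come from the longest run, and *Lce3b* (chr3:92840036-92840285, plus strand) from the other. These stretches overlap the transcripts that GENCODE annotates for their genes by 10 bases in *Sprr1b* and by 0 in the other 3.
Sprr1b: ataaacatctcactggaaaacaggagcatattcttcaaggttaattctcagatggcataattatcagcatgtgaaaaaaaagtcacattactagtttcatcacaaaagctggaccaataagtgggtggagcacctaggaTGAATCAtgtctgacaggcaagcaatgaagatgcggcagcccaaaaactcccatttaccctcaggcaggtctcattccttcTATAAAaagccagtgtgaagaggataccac
Sprr2e: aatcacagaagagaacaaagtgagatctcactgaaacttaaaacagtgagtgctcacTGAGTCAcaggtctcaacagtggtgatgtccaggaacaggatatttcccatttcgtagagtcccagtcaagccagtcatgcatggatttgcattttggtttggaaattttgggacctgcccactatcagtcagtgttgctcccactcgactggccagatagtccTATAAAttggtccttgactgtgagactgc
Sprr2f: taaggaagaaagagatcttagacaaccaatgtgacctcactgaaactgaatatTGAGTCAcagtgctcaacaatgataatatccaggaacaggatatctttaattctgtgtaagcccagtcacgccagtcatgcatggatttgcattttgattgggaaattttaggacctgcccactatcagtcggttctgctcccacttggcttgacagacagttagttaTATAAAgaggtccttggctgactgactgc
Lce3b: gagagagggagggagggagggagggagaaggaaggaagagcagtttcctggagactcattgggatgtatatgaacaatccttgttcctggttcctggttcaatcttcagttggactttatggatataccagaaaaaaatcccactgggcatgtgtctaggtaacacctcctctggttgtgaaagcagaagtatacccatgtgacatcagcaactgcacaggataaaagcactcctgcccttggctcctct

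In these stretches *Sprr1b*, *Sprr2e* and *Sprr2f* hold 1 match to each motif, and *Lce3b* holds neither. Of the 18 genes of the longest run, 13 had a promoter in the table, of which 12 overlapped an annotated transcript of the gene by at most 20 bases and *Sprr2b* by 85. TGANTCA was found in 9 of the 13, between 111 and 198 bases before the start, and TATAAA on the strand of the gene with its first base 29 to 33 bases before the start in 9 of the 13. Over all 32851 promoters of the table, 6.75% held TGANTCA anywhere in the 250 bases, and 1.75% held TATAAA on the strand of the gene 25 to 35 bases before the start. The 13 promoters belong to duplicated genes with shared sequence, so that they are not independent of each other. In the other runs TGANTCA was found in 0 of 6 promoters of the Lce3 genes, 0 of 4 of the Lce1 genes, 0 of 7 of the stefins, 0 of 6 and 0 of 5 of the kallikrein runs and 2 of 5 of the Tmprss11 genes, and TATAAA at this place in none. In 7 of the stefin promoters, 4 in each kallikrein run and 2 of the Tmprss11 promoters the stretch overlapped an annotated transcript of the gene by more than 20 bases, so that the start used there is not that of every annotation. The 4 genes of the IL36 run had no promoter in the table. A comparison of motifs between all raised and all lowered genes was held void, since only 66.7% of the raised and 71.1% of the lowered genes had a promoter in the table. The longest run was covered to a like extent (13 of 18 genes), so that its counts describe those 13 promoters only.

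*Sprr1b*, an envelope precursor, stood at 569.8, 646, 408 and 392 CPM in the UVB males and 1.42, 0.922, 8.00 and 5 CPM in the no-UVB males, where males 3 and 4 were above males 1 and 2. Its log2 fold change was 7.03 (SE 0.60, adjusted p = 7.9e-05). All 12 small proline-rich genes tested were raised, with a median of 5.78, or 5.04 with the 4 genes at the floor taken at their bounds, and 3 others had too few reads to be tested. Among those at the floor, *Sprr2e* was at least 41.6-fold and *Sprr2f* at least 27.6-fold higher. Because members of this family are near-identical, reads may be missing from each of them.

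All 6 Lce3 genes, which encode late envelope proteins made in injured epidermis, were raised, with summed levels of 1.56, 0.746, 6.55 and 4.56 CPM without UVB and 287, 363, 152 and 174 CPM with it. The Lce1 genes, made in normal epidermis, were mixed. Of 14 tested, 9 rose and 1 fell, with a median of 0.91. *Lce1g* rose by 3.54 (SE 0.51, adjusted p = 0.0011), from between 2.55 and 10.8 to between 41.6 and 104 CPM. *Lce1m* fell, with -0.83 (SE 0.19, adjusted p = 0.005). The Lce1 count depended on the no-UVB pair, with 6 risen and 2 fallen genes without no-UVB males 1 and 2, and 11 and 1 without no-UVB males 3 and 4.

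Filaggrin-type and other envelope genes rose in 18 of 20 tested, with a median of 1.71. Without no-UVB males 1 and 2, 15 rose and 2 fell, with a median of 1.27. Without UVB male 2, 15 rose, with a median of 1.51. *Flg* (ENSMUSG00000102439.5, chromosome 3, 93180830 to 93200993), which encodes the precursor of filaggrin and of natural moisturizing factor, stood at 1049.7, 1254, 968 and 658 CPM in the UVB males and 64.1, 54.8, 78.8 and 72.5 CPM in the no-UVB males. The log2 fold change was 3.86 (SE 0.21, adjusted p = 1.7e-06). *Rptn*, a filaggrin-type protein, had 3.63 (SE 0.25, adjusted p = 8.5e-06), *Casp14*, the protease that matures filaggrin, 3.41 (SE 0.25, adjusted p = 1.6e-05), and the transglutaminase *Tgm3* 2.85 (SE 0.16, adjusted p = 1.6e-06). *Loricrin*, the main envelope protein of normal epidermis, rose by only 0.29 (SE 0.14, adjusted p = 0.099), and *Flg2* was at -0.15 (SE 0.11, adjusted p = 0.29), which did not pass the test. The single fall in the list was *Tchh*, a protein of the inner root sheath of the hair, at -1.24 (SE 0.53, adjusted p = 0.085). It rested on no-UVB males 3 and 4, and the call was also lost without UVB male 2 (below).

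All 8 tested stefins of the cluster, inhibitors of cysteine proteases, rose, as did 10 of 11 kallikreins tested. *Cstdc5* (ENSMUSG00000071561.3, chromosome 16, 36179743 to 36191595) stood at 783, 1503, 689.7 and 565 CPM in the UVB males and 2.67, 2.28, 2.40 and 3.37 CPM in the no-UVB males, a log2 fold change of 8.38 (SE 0.43, adjusted p = 4.2e-06). *Stfa3* went from between 2.24 and 4.24 to between 333 and 685 CPM (7.22 (SE 0.31, adjusted p = 1.6e-06)) and *Stfa2* from between 0 and 0.351 to between 37.8 and 90.2 CPM (7.99 (SE 0.47, adjusted p = 6.8e-06)). UVB male 2 was the highest mouse for all 3, and the groups did not overlap for any of them. The cluster's median was 7.42, or 6.49 with bounds for the genes at the floor, and its genes are near-identical in part, so that the split of reads among them is uncertain. All 24 epidermal proteases and inhibitors tested rose, 18 of them past the fold, with a median of 1.76. *Klk13* was among the largest, from between 0.800 and 1.41 to between 32.0 and 91.3 CPM (5.79 (SE 0.45, adjusted p = 3.5e-05)). *Klk1*, which is not in that list, was the kallikrein that fell (-2.55 (SE 0.55, adjusted p = 0.0034)), from 3.20, 5.004, 1.24 and 1.79 CPM in the no-UVB males to 0.331, 0.124, 0.720 and 0.751 CPM in the UVB males. Of 14 clade B serpins tested 9 rose, led by *Serpinb3a* (7.43 (SE 0.60, adjusted p = 2.3e-05)) and *Serpinb12* (4.21 (SE 0.36, adjusted p = 6.5e-05)), and none fell.

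Most genes of epidermal junctions rose as well. *Gjb6* and *Gjb2*, the connexins of proliferating and inflamed epidermis, had 5.05 (SE 0.33, adjusted p = 6.2e-06) and 4.31 (SE 0.36, adjusted p = 5.9e-05), and 6 of 8 connexin and gap junction genes tested rose with none that fell. Of 15 desmosome genes 12 rose and none fell, among them *Dsg1b* (2.38 (SE 0.17, adjusted p = 8.2e-06)) and *Dsc1* (1.65 (SE 0.14, adjusted p = 6.3e-06)), the cadherins of the upper layers. The pore-forming gasdermins of the epidermis followed, with *Gsdmc* from between 1.49 and 4.05 to between 40.4 and 99.7 CPM (4.47 (SE 0.38, adjusted p = 6e-05)) and *Gsdma* at 1.88 (SE 0.15, adjusted p = 1.2e-05). Of 7 gasdermins tested 4 rose and 1 fell.

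Nearly every gene of barrier ceramides and of cholesterol synthesis rose. Of 23 genes of epidermal barrier ceramides 22 rose, with a median of 0.95, and the fall was in *Alox12e* (-0.49 (SE 0.14, adjusted p = 0.015)). *Cers3*, which makes the very long chain ceramides of the barrier, stood at 126, 122, 108 and 104 CPM in the UVB males and 32.6, 23.0, 32.4 and 33.7 CPM in the no-UVB males (1.92 (SE 0.12, adjusted p = 1.6e-06)). The elongase *Elovl6* had 1.60 (SE 0.24, adjusted p = 0.00055), the acylceramide enzyme *Pnpla1* 1.69 (SE 0.14, adjusted p = 1.3e-05) and *Sdr9c7* 1.71 (SE 0.11, adjusted p = 2.1e-06). Of 22 cholesterol synthesis genes 21 rose and none fell, with a median of 0.64, including *Idi1* (1.47 (SE 0.09, adjusted p = 1e-06)). Sebaceous lipid genes were mixed, with 9 of 18 risen and 3 fallen and a median of 0.27, and *Elovl3* rose by 2.32 (SE 0.15, adjusted p = 3.5e-06). Without UVB male 2, 10 of the 18 rose and 1 fell, and without no-UVB males 3 and 4 the median was 0.47.

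*Il36a*, *Il36b*, *Il36g* and *Il36rn* rose. *Il36a* (ENSMUSG00000026984.5, chromosome 2, 24105430 to 24115714), a cytokine of keratinocytes, stood at 80.3, 97.8, 66.2 and 47.2 CPM in the UVB males and 0.578, 0.483, 2.24 and 2.07 CPM in the no-UVB males. The log2 fold change was 5.78 (SE 0.44, adjusted p = 3.8e-05). *Il36b* had 4.38 (SE 0.35, adjusted p = 4.7e-05), *Il36g* 3.02 (SE 0.22, adjusted p = 1.4e-05), and *Il36rn*, the natural antagonist of the same receptor, 2.47 (SE 0.17, adjusted p = 6.3e-06). Of 15 IL1 and IL36 family genes tested 10 rose, among them *Il1b* (1.61 (SE 0.22, adjusted p = 0.00013)), *Il1a* (0.98 (SE 0.21, adjusted p = 0.0037)) and *Il18* (1.77 (SE 0.19, adjusted p = 9.9e-05)), and the 3 that fell were the receptors *Il1r2*, *Il1rap* and *Il1rl1* (-0.79, -0.54 and -0.47). The list's median was 0.98.

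S100 and antimicrobial genes together rose in 13 of 19 tested, with none that fell and a median of 1.17. *S100a9* and *S100a8*, which encode the subunits of calprotectin and are made by neutrophils and by inflamed keratinocytes, stood at 26.8, 77.5, 27.2 and 22.7 CPM and 16.6, 57.7, 16.7 and 12.4 CPM in the UVB males. In the no-UVB males they stood at 1.33, 1.71, 1.49 and 2.01 CPM and 1.2, 1.93, 2.82 and 2.01 CPM. UVB male 2 stood far above the other UVB males for both. The log2 fold changes were 4.55 (SE 0.54, adjusted p = 0.00039) for *S100a9* and 3.67 (SE 0.64, adjusted p = 0.0024) for *S100a8*, and without UVB male 2 they were 3.98 (adjusted p = 7.1e-08) and 2.93 (adjusted p = 1.2e-05). *Saa3*, an acute phase protein, rose from between 0.290 and 0.978 CPM to 87.8, 215, 87.1 and 74.8 CPM with the same mouse highest (7.65 (SE 0.59, adjusted p = 4.7e-05), and 7.17 without UVB male 2). The beta-defensin *Defb14* had 4.15 (SE 0.36, adjusted p = 1.9e-05) and the protease inhibitor *Slpi* 3.77 (SE 0.37, adjusted p = 4.8e-05), while *Defb3* was at least 12.4-fold higher.

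The sum of neutrophil markers other than *S100a8* and *S100a9* overlapped between the groups. The summed level of all 16 neutrophil markers listed, which include both genes, was 82.0, 176, 83.2 and 71.4 CPM in the UVB males and 49.97, 50.2, 43.4 and 44.5 CPM in the no-UVB males. Without *S100a8* and *S100a9* the other 14 summed to 38.6, 41.0, 39.3 and 36.3 CPM in the UVB males and 47.4, 46.5, 39.1 and 40.5 CPM in the no-UVB males, and UVB male 2 did not stand apart. Of the 9 markers tested 5 rose (*S100a9*, *S100a8*, *Cxcr2*, *Mmp8* and *Csf3r*) and *Mmp9* fell (-1.57 (SE 0.13, adjusted p = 3.8e-06)), and 6 rose and 3 fell without no-UVB males 1 and 2. *Cxcr2*, the receptor for neutrophil chemokines, went from between 0.307 and 0.580 to between 4.99 and 6.07 CPM (3.63 (SE 0.20, adjusted p = 4.7e-07)) without a high value in UVB male 2. *Ly6g*, the defining surface marker of mouse neutrophils, had 0 reads in all 8 males, which allows up to 0.145 CPM in the UVB males. This bound covers counting error only, and reads that map to several places were not counted. By flow cytometry the study detected cells with Ly6G protein in irradiated male skin on day 3. *Mpo* and *Elane* had too few reads to be tested, as had *Trem1* at 0.103 to 0.551 CPM after UVB. The part of neutrophils in the rise of *S100a8* and *S100a9* was not tested.

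Chemokines were mixed. Of 17 CC chemokines tested 4 rose and 3 fell, and 5 fell without no-UVB males 3 and 4 or with upper quartile scaling. *Ccl2*, which attracts monocytes, stood at 8.81, 11.2, 6.995 and 7.76 CPM in the UVB males and 3.69, 3.25, 4.69 and 4.35 CPM in the no-UVB males (1.12 (SE 0.17, adjusted p = 0.00023)), and *Ccl7* (1.16 (SE 0.18, adjusted p = 0.00029)), *Ccl12* (1.40 (SE 0.23, adjusted p = 0.00047)) and *Ccl20* (1.18 (SE 0.33, adjusted p = 0.011)) rose to a like extent. *Ccl5*, a chemokine of T cells, fell (-1.02 (SE 0.25, adjusted p = 0.0051)), as did *Ccl27a* (-0.74 (SE 0.14, adjusted p = 0.0017)) and *Ccl24* (-0.70 (SE 0.16, adjusted p = 0.0039)). The neutrophil chemokine *Cxcl1* rose from between 0.217 and 0.756 to between 0.720 and 1.47 CPM (1.17 (SE 0.34, adjusted p = 0.013)). *Cxcl2* and *Il6* were below the filter on counts, at 0.150 to 1.70 CPM and 0.310 to 0.901 CPM after UVB and 0 to 0.166 CPM and 0.0439 to 0.166 CPM without it. *Tnf* rose by 0.84 (SE 0.29, adjusted p = 0.029), but without no-UVB males 1 and 2 by 0.37 (adjusted p = 0.25).

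Genes of the prostaglandin pathway went both ways. *Ptgs2* (ENSMUSG00000032487.9, chromosome 1, 149975194 to 149983978), the inducible cyclooxygenase, stood at 7.63, 7.12, 10.2 and 6.21 CPM in the UVB males and 3.07, 4.74, 3.32 and 3.53 CPM in the no-UVB males. It had a log2 fold change of 1.09 (SE 0.18, adjusted p = 0.00047). *Ptges*, the terminal synthase of prostaglandin E2, went from between 37.97 and 39.3 to between 85.0 and 102 CPM with little spread in either group (1.28 (SE 0.06, adjusted p = 2.8e-07)). *Ptgs1* (0.40), *Ptges3* (0.39) and *Ptges2* (0.16) rose less. Genes that fell included the thromboxane synthase *Tbxas1* (-1.10 (SE 0.14, adjusted p = 6.1e-05)), the prostaglandin F receptor *Ptgfr* (-0.68 (SE 0.14, adjusted p = 0.003)) and the receptors for prostaglandin E2 *Ptger3* (-0.64) and *Ptger4* (-0.48). In all 5 of 18 genes rose and 7 fell, where 29.0% and 30.5% of all genes did, with a median of -0.07. Without UVB male 2, 4 rose and 6 fell with a median of -0.23, and 4 rose and 9 fell with upper quartile scaling.

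Most genes of cell division rose. Of 27 genes of DNA replication and entry into S phase 24 rose and 1 fell (median 0.71), and of 25 genes of mitosis 24 rose and none fell (median 0.96). *Mki67*, a marker of cycling cells, stood at 147, 173, 149 and 141 CPM in the UVB males and 53.6, 53.4, 106 and 75.3 CPM in the no-UVB males, where male 3 was the highest. It had a log2 fold change of 1.08 (SE 0.22, adjusted p = 0.0035), or 0.75 (adjusted p = 0.002) without no-UVB males 1 and 2 and 1.53 (adjusted p = 2.3e-06) without no-UVB males 3 and 4. *Rrm2*, which supplies deoxynucleotides, had 1.46 (SE 0.19, adjusted p = 0.00021), and the mitotic survivin gene *Birc5* 1.36 (SE 0.18, adjusted p = 0.0001). The medians of both lists moved with the no-UVB pair, to 0.49 and 0.67 without males 1 and 2 and to 0.92 and 1.26 without males 3 and 4.

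Of 29 p53 targets 18 rose and 3 fell (5 without no-UVB males 3 and 4, 6 with upper quartile scaling), with a median of 0.47. *Cdkn1a*, the p53 target that halts the cell cycle, rose from between 146 and 165 to between 309 and 323 CPM (1.02 (SE 0.06, adjusted p = 7.1e-07)). *Pmaip1*, which encodes the apoptosis protein Noxa, stood at 17.4, 19.2, 14.7 and 16.4 CPM in the UVB males and 3.96, 3.86, 3.94 and 4.51 CPM in the no-UVB males (2.06 (SE 0.11, adjusted p = 4.1e-07)). *Gtse1* (1.95 (SE 0.17, adjusted p = 6.6e-06)), *Tnfrsf10b* (1.32 (SE 0.15, adjusted p = 3e-05)) and *Aen* (1.24 (SE 0.08, adjusted p = 1.1e-06)) followed, while *Sesn1* (-0.55 (SE 0.17, adjusted p = 0.02)) and *Rrm2b* (-0.38) fell and *Mdm2*, the inhibitor of p53, rose by 0.45 (SE 0.06, adjusted p = 9.5e-05). *Gtse1* is also a gene of the dividing cell. Nucleotide excision repair, which removes UVB lesions, changed little in size. Of its 22 genes 15 rose and 1 fell with no change past the fold, the largest being *Rad23b* (0.58 (SE 0.06, adjusted p = 1.4e-05)), and 9 rose without no-UVB males 1 and 2 or with upper quartile scaling. The single fall was in the damage recognition gene *Ddb2* (-0.22 (SE 0.09, adjusted p = 0.052)), whose call was lost without either pair or without UVB male 2, and *Xpc* of the same step did not pass the test (-0.10 (SE 0.07, adjusted p = 0.25)).

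Antioxidant and growth factor genes were mixed. *Slc7a11*, the cystine transporter, had 3.13 (SE 0.37, adjusted p = 9.6e-05), and the glutathione transferases *Gsta1* and *Gsta4* had 2.40 (SE 0.27, adjusted p = 3.4e-05) and 1.92 (SE 0.14, adjusted p = 2.5e-06), and of 21 NRF2 genes 9 rose and 4 fell, with a median of 0.16. Among 12 genes of the EGF receptor and its ligands *Epgn* rose by 2.73 (SE 0.39, adjusted p = 0.00085) and *Hbegf* by 0.87 (SE 0.22, adjusted p = 0.0077), while *Btc* fell by 1.66 on the log2 scale (adjusted p = 1.5e-05). Of 20 interferon-stimulated genes 3 rose and 5 fell (3 without no-UVB males 1 and 2 or without UVB male 2), led by *Mx1* (0.70 (SE 0.14, adjusted p = 0.0015)) and *Usp18* (-1.15 (SE 0.19, adjusted p = 0.00077)).

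**Figure D3:**
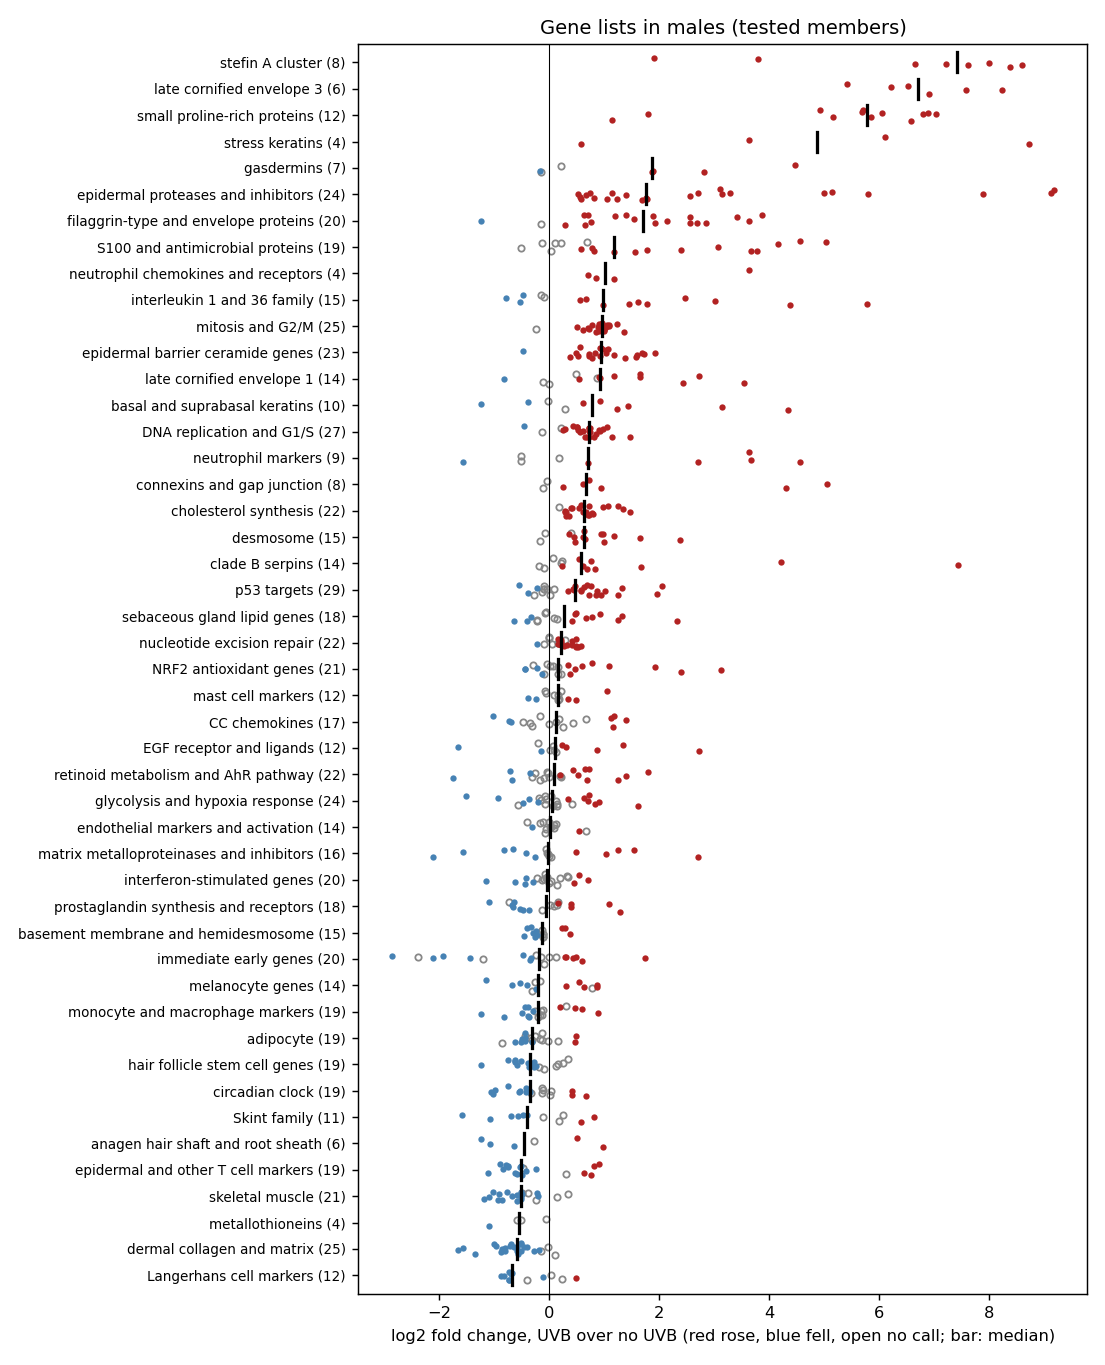
Log2 fold change (UVB over no-UVB males) of every tested member of 47 gene lists, ordered by list median (black bar), with red for genes that rose, blue for genes that fell and open points for neither; the number of tested members follows each name. Stefin, Lce3, small proline-rich and stress keratin lists have medians of 4.87 to 7.42, and dermal matrix and Langerhans cell lists have medians of -0.59 and -0.69.

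Most genes of the dermal matrix fell. *Col1a1* (ENSMUSG00000001506.11, chromosome 11, 94827050 to 94843868) and *Col1a2*, the chains of type I collagen, stood at 29619, 28976, 28447 and 25862 CPM and 29238, 28695, 27218 and 26450.4 CPM in the no-UVB males. In the UVB males they stood at 7978, 7725, 11510.5 and 8462 CPM and 7967, 7813, 12048 and 9648 CPM. The log2 fold changes were -1.66 (SE 0.15, adjusted p = 8.4e-06) and -1.57 (SE 0.16, adjusted p = 1.5e-05), and UVB male 3 was the highest of the 4 for both. The collagen-binding protein *Sparc* fell by 1.36 on the log2 scale (adjusted p = 1.6e-05), *Col5a1* by 1.01 and *Col3a1* by 0.96. Of 25 genes of the dermal matrix 22 fell and none rose, with a median of -0.59. Their sum was 9.43 to 10.4% of the CPM in the no-UVB males and 3.72 to 5.0% in the UVB males. *Lum* and *Postn* did not pass the test (-0.15 and -0.02). Genes of the basement membrane changed less, with 3 of 15 risen (*Itgb4* among them, 0.38 (SE 0.08, adjusted p = 0.0016)) and 7 fallen (11 with upper quartile scaling), and *Nid1* had the largest fall (-0.47 (SE 0.10, adjusted p = 0.0018)).

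Muscle transcripts fell with the dermal ones. Skeletal muscle genes fell in 16 of 21 tested with none that rose, and the summed level of the 22 genes listed was 31866 to 37262 CPM in the no-UVB males and 23088 to 26709 CPM in the UVB males. *Myh4*, the myosin of fast fibres, went from 5541, 6241, 4225 and 5588 CPM to 1733, 2154, 2621 and 3629.6 CPM (-1.09 (SE 0.21, adjusted p = 0.0017)), and *Actn3* had -1.18 (SE 0.12, adjusted p = 3e-05). The amount of muscle beneath the skin in each sample was not measured, and its part in this fall was not tested. Adipocyte genes had overlapping sums, 11640.3 to 16668 CPM without UVB and 11981 to 15399 CPM with it, and 2 of 19 rose and 7 fell, 3 and 4 without no-UVB males 1 and 2, and 2 and 11 with upper quartile scaling.

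Markers of Langerhans cells and T cells fell more often than they rose. *Cd207*, which encodes langerin, the defining protein of Langerhans cells, stood at 27.5, 22.5, 16.9 and 19.4 CPM in the no-UVB males and 12.4, 9.10, 13.9 and 15.9 CPM in the UVB males (-0.74 (SE 0.18, adjusted p = 0.007)). The class II antigen presentation genes *H2-Ab1* and *H2-Eb1* fell by 0.74 and 0.82 on the log2 scale, and *Il34*, the keratinocyte cytokine that maintains Langerhans cells, went from between 38.6 and 42.2 to between 20.3 and 24.7 CPM (-0.87 (SE 0.07, adjusted p = 3.9e-06)). Of 12 Langerhans cell markers 8 fell and *Epcam* rose (0.48), with a median of -0.69. Without no-UVB males 1 and 2, 6 of the 12 fell and 1 rose, with a median of -0.47. Epidermal and other T cell markers fell in 13 of 19, among them *Cd3e* (-0.84 (SE 0.18, adjusted p = 0.0023)) and *Trdv4* (-0.89 (SE 0.16, adjusted p = 0.0007)) of the epidermal gamma-delta T cells, while *Gzmb* (0.75) and *Foxp3* (0.64) rose. The list also holds *Skint1*, a gene of keratinocytes and not of T cells, which is 1 of its 4 rises (0.81). Without no-UVB males 1 and 2, 8 of the 19 fell and 2 rose, with a median of -0.40 in place of -0.52. *Cd4* rose by 0.90 (SE 0.37, adjusted p = 0.076), but the call was lost in 4 of the 8 fits with 1 mouse removed. It was at 0.55 (adjusted p = 0.15) without UVB male 2 and 0.52 (adjusted p = 0.37) without no-UVB males 1 and 2.

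Macrophage markers fell in 8 of 19 and rose in 4. Those that fell included the tissue-resident markers *Timd4* (-1.24 (SE 0.22, adjusted p = 0.00096)) and *Folr2* (-0.82 (SE 0.16, adjusted p = 0.0022)) and the complement genes *C1qa*, *C1qb* and *C1qc* (-0.39, -0.36 and -0.29). Those that rose were the macrophage receptor *Marco* (0.88 (SE 0.33, adjusted p = 0.041)), the monocyte genes *Ly6c2* (0.59 (SE 0.18, adjusted p = 0.017)) and *Ccr2* (0.18) and the Fc receptor gene *Fcgr1* (0.47), each with overlap between the groups. Without no-UVB males 1 and 2 1 of the 19 rose (2 without UVB male 2), and *Ly6c2* was at 0.37 (adjusted p = 0.16). Summed macrophage levels overlapped between groups, at 2384 to 3126 CPM without UVB and 1964 to 2582 CPM with it. Of 12 mast cell markers 3 rose and 2 fell, against 4 and 0 without no-UVB males 1 and 2 and 3 and 1 without UVB male 2. Of 14 endothelial markers 1 rose and 1 fell, against 3 and 3 without no-UVB males 3 and 4 and 1 and 3 without UVB male 2 or with upper quartile scaling.

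Pigment and hair follicle genes changed modestly. Of 14 melanocyte genes 5 rose and 5 fell, and without no-UVB males 3 and 4 2 rose and 4 fell. Those that rose included the pigment genes *Pmel* (0.87 (SE 0.27, adjusted p = 0.018)), *Tyrp1* (0.63) and *Dct* (0.54), and those that fell included the melanocyte transcription factors *Mitf* (-0.53) and *Sox10* (-0.40) and the endothelin *Edn3* (-1.15 (SE 0.21, adjusted p = 0.00084)). *Kitl*, the ligand of *Kit*, rose (0.30). Of 19 hair follicle stem cell genes 13 fell and none rose, but 4 rose and 10 fell without no-UVB males 3 and 4. The largest fall was in *Krt15*, followed by *Lgr5* (-0.75 (SE 0.18, adjusted p = 0.0067)), *Fgf18* (-0.63 (SE 0.17, adjusted p = 0.0092)) and *Cd34* (-0.62 (SE 0.11, adjusted p = 0.00053)). In the Skint family of keratinocyte membrane proteins 2 of 11 rose and 6 fell, with *Skint7* at -1.60 (SE 0.12, adjusted p = 2.8e-06) and *Skint1* at 0.81 (SE 0.12, adjusted p = 0.00027).

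The largest falls were in genes of varied function, and *Dpp6*, *Dab1* and *Cacna1e* among them span more than 300 kb. *Dpp6* (ENSMUSG00000061576.16, chromosome 5, 27022201 to 27932503), which encodes a potassium channel subunit, went from 2.27, 2.72, 1.87 and 1.196 CPM to 0.0902, 0.0619, 0.206 and 0.150 CPM, a log2 fold change of -3.97 (SE 0.39, adjusted p = 1.3e-05). *Hamp2*, a gene of the hepcidin family, stood at 50.8, 25.1, 61.4 and 91.9 CPM in the no-UVB males and 4.27, 4.27, 5.40 and 8.51 CPM in the UVB males (-3.36 (SE 0.45, adjusted p = 0.00071)). *B4galnt2*, a glycosyltransferase, had -3.13 (SE 0.39, adjusted p = 6.9e-05), and *Dab1*, an adaptor of reelin signalling, -2.66 (SE 0.14, adjusted p = 3.8e-07) with no-UVB levels of 10.4 to 13.4 CPM and UVB levels of 1.65 to 2.35 CPM. The immunoglobulin heavy chain gene *Ighg1* (-2.74 (SE 0.48, adjusted p = 0.00092)), the neuropeptide gene *Gal* (-2.65 (SE 0.64, adjusted p = 0.0081)) and the calcium channel gene *Cacna1e* (-2.38 (SE 0.20, adjusted p = 5e-06)) also fell without overlap. *Gal* varied over the no-UVB males, from 0.652 to 6.40 CPM.

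Several genes of the circadian clock were lower. *Dbp* stood at 142, 155, 202 and 219.7 CPM in the no-UVB males and 93.7, 76.3, 89.8 and 85.4 CPM in the UVB males (-1.06 (SE 0.14, adjusted p = 0.00017)), *Nr1d1* had -1.03 (SE 0.14, adjusted p = 0.00033) and *Per1* -0.98 (SE 0.17, adjusted p = 0.0013). Of 19 clock genes 10 fell and 3 rose (*Cry1*, Clock and *Rora*, at 0.66, 0.41 and 0.41), while *Bmal1* was at 0.03. The hour at which each mouse was sampled was not given in the sources used here, and its part in these values was not tested.

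Immediate early genes differed between no-UVB males 1 and 2 and no-UVB males 3 and 4. *Fos* (ENSMUSG00000021250.14, chromosome 12, 85520658 to 85524047), a subunit of AP-1, stood at 141, 239, 34.3 and 25.8 CPM in the no-UVB males and 12.1, 10.2, 20.4 and 17.7 CPM in the UVB males, with males 1 and 2 far above the other two. The fitted log2 fold change was -2.87 (SE 0.81, adjusted p = 0.023), and -0.99 (adjusted p = 0.031) without no-UVB males 1 and 2. *Dusp1*, a phosphatase of the same response, had -2.13 (SE 0.50, adjusted p = 0.011), or -1.03 (adjusted p = 0.00077) without that pair, and *Egr1* had -1.45 (SE 0.42, adjusted p = 0.023), or -0.56 (adjusted p = 0.055). *Atf3* passed the test over all 8 males (-1.94 (SE 0.73, adjusted p = 0.062)) but not without no-UVB males 1 and 2 (-0.34 (adjusted p = 0.61)), and it was lost in 5 of the 8 fits with 1 mouse removed, with -1.52 (adjusted p = 0.15) without no-UVB male 2. *Ddit4* and the metallothioneins *Mt1* and *Mt2* were high in the same pair. *Fosl1*, the AP-1 subunit of proliferating keratinocytes, rose in contrast, from between 1.54 and 3.32 to between 5.70 and 9.26 CPM (1.73 (SE 0.24, adjusted p = 0.00016)). Of 20 immediate early genes 6 rose and 7 fell with all males, 8 and 3 without no-UVB males 1 and 2, and 5 and 11 without no-UVB males 3 and 4.

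No-UVB males 3 and 4 stood apart in genes of growing hair. *Krt71*, a keratin of the inner root sheath, had 0.133, 0.219, 20.2 and 37.8 CPM in the no-UVB males and 0.120 to 0.310 CPM in the UVB males, and *Krt25* and *Krt27* had the same pattern with 0.0889, 0, 9.87 and 20.3 CPM and 0.222, 0.351, 6.68 and 13.04 CPM without UVB. These 3 were not tested, since too few mice had enough reads for the filter. Of the 25 listed genes of hair shaft and root sheath 6 were tested, of which 2 rose and 3 fell, against 2 and 1 without no-UVB males 3 and 4. Without UVB male 2, 1 rose and 1 fell. *Tchh* stood at 16.5, 11.3, 45.8 and 57.1 CPM without UVB and 12.1, 16.4, 14.5 and 12.4 CPM with it. The fitted log2 fold change was -1.24 (SE 0.53, adjusted p = 0.085), -1.90 (adjusted p = 7.3e-06) without no-UVB males 1 and 2 and 0.00 (adjusted p = 1.0) without no-UVB males 3 and 4. Without UVB male 2 it was -1.33 (adjusted p = 0.13), and the call was lost. The labels give telogen for all mice, and the study states that it excluded animals whose back skin had entered anagen, the growth stage. The hair cycle stage of each mouse was not otherwise recorded in the sources used here. *Foxn1*, which drives hair differentiation, rose over both pairs (0.98 (SE 0.19, adjusted p = 0.0013)).

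**Figure D4:**
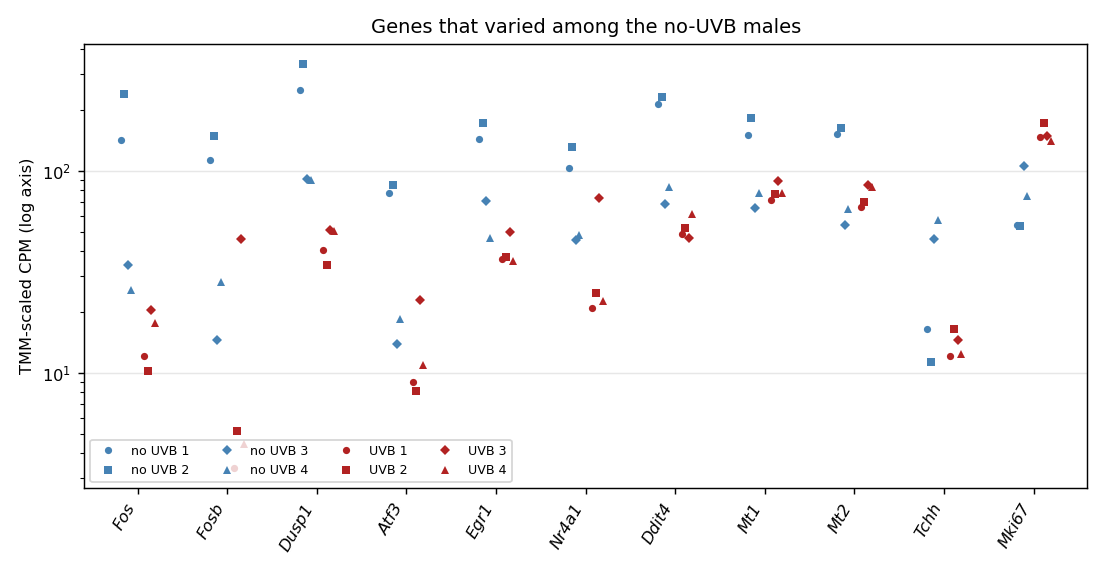
CPM (log axis) of each UVB male (red) and no-UVB male (blue) for 11 genes that varied among the no-UVB males. No-UVB males 1 and 2 lie above males 3 and 4 for *Fos*, *Fosb*, *Dusp1*, *Atf3*, *Egr1*, *Nr4a1*, *Ddit4*, *Mt1* and *Mt2*, and males 3 and 4 lie above males 1 and 2 for *Tchh* and *Mki67*.

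Raised and lowered genes differed in the length of genome that they span. The median span from first to last annotated base was 11853 bases for the raised genes, 48151 for the lowered genes and 23242 for all genes tested. Among genes spanning under 3 kb 8.82% were raised and 2.66% lowered, and among the 421 genes over 300 kb 0.71% were raised and 30.4% lowered. The 3 raised genes of that size were *Nrg1*, *Slc7a11* and *Otud7a*, and the call of *Nrg1* (1.34 (SE 0.54, adjusted p = 0.06)) was lost in 5 of 8 fits with 1 mouse removed, with 1.25 (adjusted p = 0.12) without UVB male 2 and 0.88 (adjusted p = 0.26) without no-UVB males 1 and 2. By the adjusted p alone 84.1% of the genes over 300 kb fell, with a median log2 fold change of -0.75. The 4 UVB males did this alike. Over genes of more than 300 kb and at least 1 CPM, the median deviation of each UVB male from the no-UVB mean was -0.74, -0.70, -0.68 and -0.64 on the scale of log2(CPM + 0.5), and that of the no-UVB males lay between -0.03 and 0.01. The pattern was the same among protein-coding genes of at least 1 CPM, where 29.0% of those over 300 kb were lowered.

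Among the longest lowered genes were *Dlg2* (-1.31 (SE 0.14, adjusted p = 2.3e-05)), a synaptic scaffold gene, *Csmd1* (-1.43 (SE 0.17, adjusted p = 4.2e-05)) and *Fhit* (-1.30 (SE 0.20, adjusted p = 0.00026)), and *Dab1* and *Nckap5* (-1.98) belong to the same class. *Dlg2* spans 1972576 bases and averaged 24.0 ± 3.23 CPM (SD, n = 4) without UVB and 9.66 ± 1.86 CPM with it. The fits of all genes used here hold no term for gene length.

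**Figure D5:**
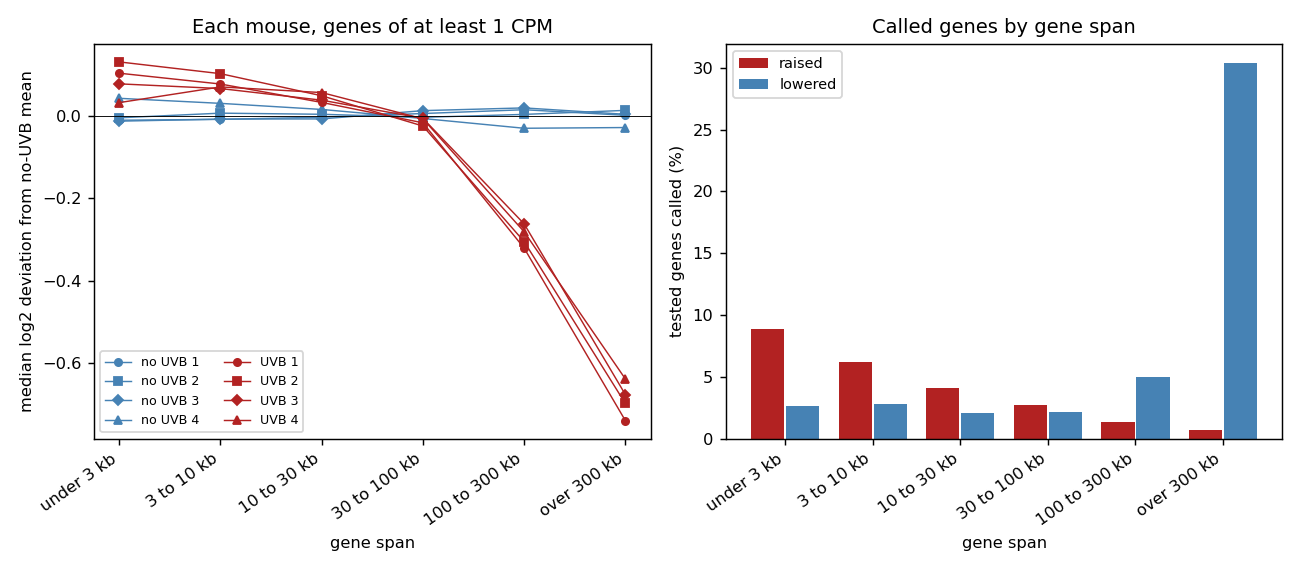
Left, median deviation of each mouse from the no-UVB mean (log2 scale, pseudocount of 0.5 CPM) by span of the gene; right, percentage of tested genes raised (red) and lowered (blue) by span. The 4 UVB males fall to between -0.74 and -0.64 in genes over 300 kb, where 30.4% of genes were lowered.

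The mice of a group differed in how often they were highest or lowest. UVB male 2 had the highest level of the 4 UVB males in 304 of the 675 raised genes and UVB male 1 in 254, while UVB male 4 had the lowest in 333. Among the no-UVB males, male 3 was highest in 303 of the raised genes and male 2 lowest in 347. For the lowered genes UVB males 3 and 4 were highest in 193 and 189 of 547, and no-UVB male 2 was highest in 216. In the raised genes together, UVB males 1 to 4 held 8.41, 8.96, 7.63 and 6.83% of the counts, and no-UVB males 1 to 4 held 2.18, 1.98, 2.72 and 2.62%.

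For the genes named by the rules used here, the response of males was set against that of 4 UVB and 4 no-UVB females of the same age and strain in a fit over all 16 mice. The interaction of sex and UVB was past an adjusted p of 0.1 for 478 of 17406 genes with the higher log2 fold change in males (2.75%) and for 740 with the lower one (4.25%). Of the 203 named genes, which were chosen by their response in males, 36 had a higher and 16 a lower value in males, and 29 of these 52 kept the call in all 16 fits with 1 mouse removed. *Krt6b* differed by 3.86 (SE 0.59, adjusted p = 0.0078) between the sexes, *Krt16* by 3.12 (SE 0.49, adjusted p = 0.0098) and *Krt6a* by 2.48 (SE 0.51, adjusted p = 0.025). *Rptn* differed by 2.89 (SE 0.43, adjusted p = 0.0066), with a log2 fold change of 0.73 in females, and *Slc7a11* by 2.84 (SE 0.46, adjusted p = 0.0074), with 0.28 in females. Lower in males were *Col1a1* by -1.25 (SE 0.26, adjusted p = 0.022), *Sparc* by -1.38 (SE 0.22, adjusted p = 0.0074) and the muscle genes *Actn3* by -1.24 (SE 0.24, adjusted p = 0.018) and *Pvalb* by -1.12 (SE 0.21, adjusted p = 0.015), whose log2 fold changes in females were -0.42, 0.01, 0.04 and 0.07. *Ptges* differed by 0.70 (SE 0.13, adjusted p = 0.016), *Pmaip1* by 0.88 (SE 0.22, adjusted p = 0.044) and *Per1* by -0.98 (SE 0.23, adjusted p = 0.039), all with the call kept in every such fit. For the named genes not among these 52 the test did not separate the responses of the sexes from the spread between mice.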

How the data were processed

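RNA of whole dorsal skin was measured in 16 mice, of which the 8 males are described and the 8 females serve only for the interaction. The authors made directional poly(A) libraries with the NEBNext Ultra II kit and aligned the reads to GRCm39 with STAR, per the submitters' processing notes. They deposited 1 table of whole-number gene counts per mouse, without normalization, and the annotation release behind them was not given in the sources used here. Each table holds 3 counts per gene. That of the directional strand was used, since the opposite strand held 3.63 to 4.23% of gene reads. Rows that name no gene (unmapped reads 10.7 to 14.9%, reads outside genes 8.30 to 13.7% and ambiguous reads 1.18 to 1.34% of the male libraries) were left out. The row for reads with several places was 0 in every table, so that only uniquely mapped reads were counted. Symbols and positions came from GENCODE M39, which holds 54749 of 55359 identifiers.

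Counts were filtered with filterByExpr, scaled by TMM and tested with the quasi-likelihood F test (robust) of edgeR 4.0.16 in R 4.3.3, on 4 against 4 males without covariates, with Benjamini-Hochberg adjustment over 16535 genes. The interaction was fitted over all 16 mice. DESeq2 1.42.0 was used as an alternative. CPM are TMM-scaled. The biological coefficient of variation among males was 0.107, and every pair of libraries of a group differed by more than sampling noise. On simulated data for the male comparison (16535 genes), 97 of 100 genes changed by a log2 fold of 2 and 91 of 100 changed by 1.5 were recovered as raised or lowered, with 2 false calls past the fold and 23 at the adjusted p alone. That simulation changed only these genes, evenly in both directions, whereas 4802 genes rose and 5051 fell in the data. Scaling and false calls under such broad change were therefore not tested. Alternatives covered scaling, filters, strand, thinning to the smallest library, thresholds, DESeq2, a replicate block and each mouse left out. Fits without either pair of no-UVB males were chosen after seeing the data.

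The 48 gene lists were written by hand from general knowledge. The members and lists were chosen with earlier results of these data known. Genes are named by rule. These are the 15 largest rises and the 12 largest falls among genes whose groups did not overlap, with an adjusted p under 0.1 and a mean of at least 1 CPM, the 8 largest gains and the 8 largest losses in CPM, the 10 highest genes with at most 3 counts in every no-UVB male, up to 4 members of each list, and *Ptgs2*, *Ptges*, *S100a8*, *S100a9* and *Ccl2*. Other genes named in the text were chosen after their values were seen. Plots were drawn with matplotlib 3.10.9 from tables made in Python 3.11.15 and pandas 2.3.3. Summed levels of a list cover all its genes, tested or not.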

Additional observations from a re-analysis of the deposited data

Results flagged for a closer look

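Of 198 groups of 4 males examined (summed lists and named genes), 18, or 9.09%, held 1 mouse whose gap to the others passed Dixon's limit for 4 values, which chance alone gives about 1 in 20 times. The share cannot be set against that figure, since 3 of the 18 are genes with reads in 1 mouse and 0 in the others, which passes the limit by construction, and the neutrophil sum repeats *S100a8* and *S100a9*. The summed level of clade B serpins was highest in no-UVB male 4 at 1263 CPM, against 1041 to 1066 CPM in the other mice of the group. IL1 and IL36 family genes had their highest sum in no-UVB male 4 at 562 CPM, against 475 to 489 CPM in the other mice of the group. The EGF receptor and its ligands had their lowest sum in no-UVB male 2 at 519.8 CPM, against 551 to 554 CPM in the other mice of the group. The summed level of neutrophil markers was highest in UVB male 2 at 176 CPM, against 71.4 to 83.2 CPM in the other mice of the group. That gap lies in *S100a8* and *S100a9*, without which the markers summed to 41.0 CPM in this mouse and 36.3 to 39.3 CPM in the others. Adipocyte genes had their highest sum in UVB male 4 at 15399 CPM, against 11981 to 12301 CPM in the other mice of the group. Cholesterol synthesis genes had their lowest sum in UVB male 2 at 4251 CPM, against 4870.0 to 4946 CPM in the other mice of the group. 

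*Saa3* was highest in UVB male 2 at 215 CPM, with 74.8 to 87.8 CPM in the others. *Lce3e* was highest in no-UVB male 3 at 0.456 CPM, with 0.0439 to 0.109 CPM in the others. *Ighg1* was highest in UVB male 4 at 1.15 CPM, with 0.150 to 0.310 CPM in the others. *Dmkn* was lowest in UVB male 4 at 2806 CPM, with 3031 to 3061 CPM in the others. *Col3a1* was highest in UVB male 3 at 11484 CPM, with 8987 to 9363 CPM in the others. *Atp2a1* was lowest in UVB male 1 at 2415 CPM, with 2834 to 2899 CPM in the others. *Sprr2e* was highest in UVB male 2 at 9.72 CPM, with 3.81 to 4.75 CPM in the others. *S100a9* was highest in UVB male 2 at 77.5 CPM, with 22.7 to 27.2 CPM in the others. *S100a8* was highest in UVB male 2 at 57.7 CPM, with 12.4 to 16.7 CPM in the others. In *Tmprss11b* (0.124 CPM in no-UVB male 3), *Tmprss11d* (0.0543 CPM in no-UVB male 4) and *Csta3* (0.0445 CPM in no-UVB male 1), 1 no-UVB male had reads and the other 3 had 0. UVB male 2 was the mouse set apart in *Saa3*, *S100a8*, *S100a9*, *Sprr2e* and the cholesterol genes.

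For 23 of the 51 genes named other than through a list alone, the response of males differed from that of females by the interaction of sex and UVB (over all genes, 2.75% were higher and 4.25% lower in males). Most of the 51 were chosen by the size of their change in the same males, which favours a larger response in males, so that the count is a description. The log2 fold change was higher in males for *Csta3* by 6.04 (adjusted p = 0.039), *Tmprss11b* by 5.64 (adjusted p = 0.061), *Tmprss11a* by 5.16 (adjusted p = 0.027) and *Sprr2e* by 4.74 (adjusted p = 0.011). It was also higher for *Krt6b* by 3.86 (adjusted p = 0.0078), *Sprr2f* by 3.70 (adjusted p = 0.073), *Lce3e* by 3.51 (adjusted p = 0.071) and *S100a8* by 3.47 (adjusted p = 0.033). It was also higher for *Cstdc5* by 2.72 (adjusted p = 0.049), *Krt6a* by 2.48 (adjusted p = 0.025), *S100a9* by 2.24 (adjusted p = 0.054) and *Krt14* by 0.95 (adjusted p = 0.088). It was also higher for *Ccl2* by 0.86 (adjusted p = 0.061) and *Ptges* by 0.70 (adjusted p = 0.016). It was lower in males for *Fos* with a difference of -3.05 (adjusted p = 0.065), *Hamp2* with a difference of -2.40 (adjusted p = 0.024), *Ighg1* with a difference of -2.18 (adjusted p = 0.088) and *Sparc* with a difference of -1.38 (adjusted p = 0.0074). It was further lower for *Col1a1* with a difference of -1.25 (adjusted p = 0.022), *Col1a2* with a difference of -1.23 (adjusted p = 0.017), *Dab1* with a difference of -1.09 (adjusted p = 0.042) and *Atp2a1* with a difference of -0.68 (adjusted p = 0.048). It was further lower for *Acta1* with a difference of -0.66 (adjusted p = 0.095). In *Tmprss11b*, *Csta3*, *Tmprss11a*, *Sprr2e* and *Sprr2f* no no-UVB male had more than 3 reads, so that the size of the difference depends on the prior count of the fit. The calls of *Acta1* (4), *Krt14* (5), *Ighg1* (5), *Lce3e* (8), *Sprr2f* (9), *Fos* (9), *Ccl2* (10), *Tmprss11b* (11), *S100a9* (13), *Atp2a1* (14), *Cstdc5* (15), *Csta3* (15), *Dab1* (15) and *Tmprss11a* (15) did not hold in all 16 fits with 1 mouse removed (the number in parentheses is how many it held in). Their weakest values were *Acta1* at -0.59 (adjusted p = 0.2) without male no-UVB 2, *Krt14* at 0.81 (adjusted p = 0.17) without male no-UVB 2, *Ighg1* at -1.77 (adjusted p = 0.2) without male UVB 1 and *Lce3e* at 3.18 (adjusted p = 0.15) without male no-UVB 2. Next came *Sprr2f* at 3.31 (adjusted p = 0.16) without male no-UVB 2, *Fos* at -2.95 (adjusted p = 0.14) without male UVB 1, *Ccl2* at 0.77 (adjusted p = 0.14) without male no-UVB 2 and *Tmprss11b* at 4.84 (adjusted p = 0.21) without female no-UVB 1. Next came *S100a9* at 1.93 (adjusted p = 0.12) without female no-UVB 1, *Atp2a1* at -0.62 (adjusted p = 0.12) without male UVB 1, *Cstdc5* at 2.65 (adjusted p = 0.11) without male no-UVB 2 and *Csta3* at 5.79 (adjusted p = 0.11) without female no-UVB 3. Next came *Dab1* at -0.97 (adjusted p = 0.101) without female UVB 1 and *Tmprss11a* at 4.33 (adjusted p = 0.14) without female no-UVB 3.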

How the results depend on the processing

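The 2 numbers of calls past the fold and the 2 at the adjusted p alone stayed within 1.5 times their value in 78 of 84 results under the alternatives. Requiring at least 10 counts in every male left 359 lowered genes among 15112 tested, and testing every gene with at least 1 count (31693) gave 1124 raised and 923 lowered genes. Without no-UVB males 3 and 4, a choice made after seeing the data, 1027 genes were raised and the cause was not tested. An adjusted p under 0.01 by its construction left 3190 risen and 2929 fallen genes. Leaving out 1 mouse gave 645 to 842 raised and 470 to 714 lowered genes, and 4434 to 4961 risen and 4399 to 4925 fallen genes. DESeq2's test gave 911 raised and 758 lowered genes. Same-numbered UVB and no-UVB males did not deviate together (correlations of 0.03, -0.08, -0.07 and -0.01). Whether the numbers mark a pairing was not stated in the sources used here, and these values cannot exclude it. A fit with the replicate number as a block gave 684 raised and 535 lowered genes, and 4680 and 4936 at the adjusted p alone. Of 4224 values of the named genes under an alternative, 4125 kept their direction and call, 98 lost the call and 1 reversed, the log2 fold change of *Tchh* at 0.000289 without no-UVB males 3 and 4, whose cause was not tested. Of 988 interaction values for the 52 genes, 825 kept the call and 163 lost it. Of 880 list medians, 74 moved by more than the spread between mice. The medians by gene span were checked only with at least 10 counts in every male, where none of 3 moved. With 4 mice a group and at least 16495776 gene reads a mouse, genes of few reads are limited by counting, and genes at 0 could not be bounded below 0.138 CPM without UVB.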

Other observations

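Genes close to silent without UVB included some that belong to none of the lists. Against a floor of 3 reads per no-UVB library, the neuropeptide gene *Nmu* was at least 10.9-fold higher after UVB, the growth factor gene *Fgf3* at least 7.20-fold, the photoreceptor cadherin gene *Cdhr1* at least 19.8-fold and *Ms4a10* at least 9.21-fold. The non-coding RNA *Wincr1* had 0 reads in all 4 no-UVB males and was at least 6.43-fold higher. In the other direction Otof and *Erc2* were the 2 lowered genes at the floor after UVB, at least 4.98-fold and at least 4.43-fold lower. These genes were chosen after their values were seen.

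Other lists gave mixed counts. Of 24 glycolysis and hypoxia genes 7 rose and 5 fell (3 without no-UVB males 1 and 2, 8 without males 3 and 4), with a log2 fold change for *Car12*, a carbonic anhydrase, of 1.62 (SE 0.18, adjusted p = 0.00012), for *Egln3* of 0.90 (SE 0.20, adjusted p = 0.0057) and for *Pfkfb3* of -0.93 (SE 0.10, adjusted p = 3e-05). Of 22 genes of retinoid metabolism and the AhR pathway 9 rose and 4 fell. The log2 fold changes were 1.79 (SE 0.25, adjusted p = 0.00027) for *Dhrs9*, 1.39 (SE 0.26, adjusted p = 0.0027) for *Aldh1a3* and 1.26 (SE 0.11, adjusted p = 5.5e-06) for *Crabp1*, while *Aldh1a2*, which makes retinoic acid, fell, with -1.76 (SE 0.34, adjusted p = 0.0013). Of 16 matrix metalloproteinases and inhibitors 5 rose and 6 fell (3 rose without no-UVB males 1 and 2 or without UVB male 2), with *Mmp8* from between 0.207 and 0.356 to between 1.54 and 2.35 CPM (a log2 fold change of 2.70, adjusted p = 1.4e-05) and *Timp1*, an inhibitor, with a log2 fold change of 1.55 (SE 0.13, adjusted p = 5.1e-06). Of 4 metallothioneins 1 fell and 0 rose, against 3 and 0 without no-UVB males 3 and 4 and 0 and 1 without males 1 and 2, where the median went from -0.55 to 0.03. The fall was in *Mt3*, with a log2 fold change of -1.11 (SE 0.34, adjusted p = 0.018), and without no-UVB males 1 and 2 it was at -0.84 (adjusted p = 0.16).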
